A study of Mus musculus with 3 samples.

Results

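Transglutaminases, the envelope plakins and the cornification proteases were described here by their RNA in the whole skin of mice at 3 ages. The 8 genes were Tgm1, Tgm2, Tgm3, Tgm5, Evpl, Ppl, Casp14 and Asprv1, taken as the rows of the gene column that carry these symbols, 8 of 21885 gene rows found in any of the 3 tables. Skin came from FVB mice, an inbred strain, on embryonic day 18.5 (E18.5), on postnatal day 3 (P3) and at an age of 10 weeks, and the value columns are headed as wild type; the labels name no other allele and no treatment. The design text gives 2 biological replicates for each age, but each table holds 1 averaged value per gene. For that reason no spread, interval or p-value could be computed, and every difference stands without a check against replicates. The series title mentions p63, on which stratified epithelia depend.

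The cornified envelope is the insoluble protein shell that replaces the plasma membrane of a dying keratinocyte at the skin surface. Transglutaminases build it by joining glutamine and lysine side chains of neighbouring proteins, first on a scaffold of the plakins envoplakin and periplakin and later on loricrin and the small proline-rich proteins. Proteases of the same layers, among them caspase-14 and the retroviral-like aspartic protease SASPase, process filaggrin, whose breakdown products keep the outer layers moist. Transglutaminase 2, by contrast, is a tissue enzyme found in endothelium, fibroblasts and macrophages, where it cross-links matrix proteins.

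Values are FPKM, fragments scaled by transcript length and by the number of mapped fragments, which allows for length between genes; between ages they still depend on the makeup of the RNA, so results were also computed after other scalings of the ages. A gene is called higher or lower where log2 of (FPKM + 1) at the later age differs by at least 1 from that at the earlier age, which is 2-fold on this scale. All 8 genes carried the mark OK in the status column at every age, and 7 of them stayed at or above 1 FPKM at every age, Tgm3 at 10 weeks being the exception. The tables hold no counts, so depth is unknown, and low values carry an unstated precision. Whole skin is a mixture, in which fewer cells of a type and less RNA per cell cannot be told apart. Markers of the labelled tissue were present: all 11 genes listed for basal keratinocytes were expressed, with summed levels over the 3 ages of 2659, 6123 and 2654 FPKM. The 8 suprabasal genes were expressed as well, but the P3 estimates of Krt1 and Krt10 failed and are left out. Xist stood at 0.0433, 64.6 and 73.0 FPKM and the Y-linked Eif2s3y at 42.1, 0.0838 and 0 FPKM at the 3 ages. Comparisons with E18.5 thus also set an average with Y-linked RNA against averages nearly without it. None of the 8 genes lies on chromosome X or Y, but their dependence on sex was not tested. In comparisons with E18.5 it cannot be told apart from age.

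For 5 of the 8 genes the RefSeq promoter table (build GRCm38.p6) holds a start site, and for Evpl, Ppl and Tgm2 it holds none. The 250 bases before the start are shown for Tgm1, Tgm3, Casp14 and Asprv1, because, of the genes with a start site, these had a P3 maximum and a value at least 2-fold lower at 10 weeks; of the 2 starts listed for Tgm1 the one further upstream is given. Capitals mark matches to 7 motifs, on either strand, that were searched in the 300 bases from 250 before to 50 after the start.
Tgm1, chr14:55713493-55713742, minus strand: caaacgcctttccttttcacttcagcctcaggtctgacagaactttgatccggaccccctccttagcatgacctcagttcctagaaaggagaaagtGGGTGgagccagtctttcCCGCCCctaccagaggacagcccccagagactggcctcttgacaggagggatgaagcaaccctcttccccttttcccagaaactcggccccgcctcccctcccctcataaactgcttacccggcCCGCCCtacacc
Tgm3, chr2:130012090-130012339, plus strand: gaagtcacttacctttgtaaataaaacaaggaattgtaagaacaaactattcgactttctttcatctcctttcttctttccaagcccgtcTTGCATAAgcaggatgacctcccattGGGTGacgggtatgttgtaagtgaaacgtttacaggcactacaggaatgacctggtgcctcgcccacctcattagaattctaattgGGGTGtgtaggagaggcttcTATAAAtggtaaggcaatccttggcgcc
Casp14, chr10:78718294-78718543, minus strand: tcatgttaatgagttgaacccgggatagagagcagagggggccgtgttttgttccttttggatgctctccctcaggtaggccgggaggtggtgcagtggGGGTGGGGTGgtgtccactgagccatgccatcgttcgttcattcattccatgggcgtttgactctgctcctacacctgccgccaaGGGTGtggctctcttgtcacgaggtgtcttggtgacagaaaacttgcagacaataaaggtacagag
Asprv1, chr6:86627924-86628173, plus strand: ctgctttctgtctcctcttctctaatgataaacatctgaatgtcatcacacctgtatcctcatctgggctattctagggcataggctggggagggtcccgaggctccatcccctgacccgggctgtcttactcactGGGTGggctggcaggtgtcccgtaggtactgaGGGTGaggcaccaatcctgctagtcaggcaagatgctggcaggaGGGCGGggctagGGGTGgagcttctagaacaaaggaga
The motifs were the CACCC box (CACCC), the GC box (GGGCGG), the TATA box (TATAAA), the C/EBP motif (TTNNGNAA), the AP-1 motif (TGANTCA), the grainyhead motif (AACCNGTT) and the p53-family decamer. In the same order, 57.5%, 35.7%, 13.6%, 40.7%, 7.81%, 2.09% and 8.36% of all 32851 promoters in the table hold a match, and no matches overlapped in the windows of these genes. The CACCC box occurred in all 4 printed windows, a motif that most promoters hold. The TATA box occurred in Tgm3, with its first base 28 bases before the start, and the GC box in Tgm1 and Asprv1. The C/EBP motif occurred before the start in Tgm3 and after it in Casp14 and at the other Tgm1 start. The window of Tgm5 held a grainyhead match whose first base lay 4 bases before the start. Neither the AP-1 motif nor the p53-family decamer occurred in the windows of these genes, which says only that these letters are absent there. Matches are descriptions of sequence and were not tied to the expression values.

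In P3 skin 7 of the 8 genes were higher than before birth, at E18.5, and 1, Tgm2, was lower, where 9.56% of all 14653 genes compared were higher and 9.42% lower. Their median log2 difference was 1.83, against 0.03 over all genes. From P3 on the picture turned: at 10 weeks 6 were lower than at P3 and 1, again Tgm2, was higher, beside 9.98% of 14655 genes lower and 19.8% higher, with a median of -2.40 against 0.14 over all genes. Compared with E18.5, 3 were lower at 10 weeks (Tgm3, Casp14 and Asprv1) and Tgm2 was higher, beside 6.92% of 14659 genes lower and 16.1% higher. These 3 comparisons share their ages, so the P3 value of a gene enters 2 of them with opposite sign. Beside the P3 values, the basal-layer markers were themselves higher in 4 of 11 cases at P3 than at E18.5, with a median of 0.94. With the ages scaled on those basal-layer genes, 3 of the 8 genes were still higher at P3 (Tgm1 at 1.36, Casp14 at 1.17 and Evpl at 1.15), 1 was lower, and 5 were lower and 1 was higher at 10 weeks than at P3. Under that scaling 3.04% of all 14782 genes compared passed 2-fold upward for P3 over E18.5 and 30.7% downward, and for 10 weeks over P3 the shares were 42.1% upward and 4.48% downward. For 10 weeks over E18.5 it gave 1 higher and 3 lower of the 8 genes, beside 15.6% and 7.91% of all genes.

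**Figure D1:**
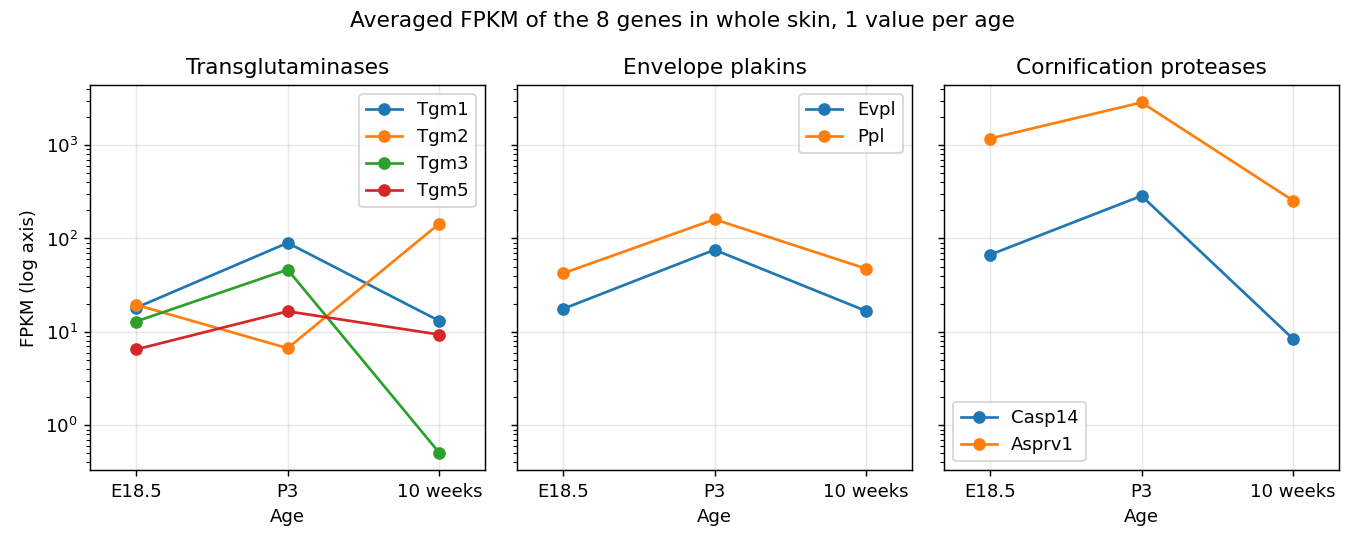
FPKM (log axis) of the 8 genes against age, in panels for transglutaminases, envelope plakins and cornification proteases; each point is the 1 averaged value of an age and lines only join points of a gene. Tgm2 has its minimum at P3 (6.68 FPKM), while the other 7 genes have their maximum there, from 16.6 FPKM for Tgm5 to 2860.0 FPKM for Asprv1.

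Tgm1, the membrane-anchored transglutaminase of keratinocytes whose loss causes lamellar ichthyosis in humans, lies on mm9 chromosome 14, 56318846 to 56332329. It stood at 18.1 FPKM at E18.5, 89.7 FPKM at P3 and 13.1 FPKM at 10 weeks. The P3 value was thus 4.97 times that of E18.5 and 6.83 times that of 10 weeks, with log2 differences of 2.25 (P3 over E18.5) and -2.68 (10 weeks over P3). Embryonic and adult skin differed by less than 2-fold (-0.43). By rank Tgm1 exceeded 71.2%, 93.6% and 55.8% of the expressed genes at E18.5, P3 and 10 weeks.

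Tgm3, the epidermal and hair follicle transglutaminase, cross-links trichohyalin in the inner root sheath (chromosome 2, 129838110 to 129876135). Its levels were 12.9 FPKM at E18.5, 46.4 FPKM at P3 and 0.508 FPKM at 10 weeks. The 10-week level was the lowest of all 24 values of the 8 genes, and only 3.98% of expressed genes lay below it. Its log2 differences were 1.77 for P3 over E18.5, -4.97 for 10 weeks over P3 and -3.20 for 10 weeks over E18.5. Without a pseudocount, its P3 FPKM was 91.2 times the adult one. With the basal-layer scaling, Tgm3 was at 0.89 for P3 over E18.5, under 2-fold. Genes of the inner root sheath were also higher at P3 than at E18.5, in 7 of 7 cases compared (6 with the basal-layer scaling). In the adult 6 of 7 were lower than at P3. Their summed levels were 227 FPKM at E18.5, 4364 FPKM at P3 and 267 FPKM at 10 weeks. For 10 weeks over E18.5 they departed from Tgm3 (-3.20), with 2 of 8 higher and 0 lower (median 0.40). The 10 hair shaft keratins summed to 39.3, 978 and 38.9 FPKM over the ages. Trichohyalin itself, Tchh, had 26.1 FPKM at 10 weeks, against 16.0 FPKM at E18.5, and its P3 estimate failed. The part of hair follicle content in the Tgm3 values was not tested.

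Tgm5, a transglutaminase of the upper epidermis whose loss causes acral peeling skin in humans, varied least (chromosome 2, 120871847 to 120911495). It was at 6.48 FPKM at E18.5, 16.6 FPKM at P3 and 9.35 FPKM at 10 weeks. It passed 2-fold at P3 over E18.5 (1.23) but not at 10 weeks over P3 (-0.76) or over E18.5 (0.47). The P3 call was lost with a pseudocount of 5 (0.91) and with the basal-layer scaling (0.39), under which the value for 10 weeks over P3 turned to 0.01. At E18.5 and P3 Tgm1 stood at 2.79 and 5.42 times Tgm5, and in the adult at 1.41 times, so that the level of Tgm5 was nearest to that of Tgm1 at 10 weeks.

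Tgm2 (chromosome 2, 157942141 to 157972128) ran opposite to the other 7 genes in both steps. It stood at 19.5 FPKM at E18.5, 6.68 FPKM at P3 and 144 FPKM at 10 weeks, with log2 differences of -1.42 for P3 over E18.5, 4.23 for 10 weeks over P3 and 2.82 for 10 weeks over E18.5. In the adult it exceeded 95.6% of expressed genes, against 41.5% at P3. Markers of several other cell types differed between the same ages in the same directions. Macrophage markers (7 genes) summed to 177 FPKM at E18.5, 70.6 FPKM at P3 and 1318 FPKM at 10 weeks, with 4 of 7 lower at P3 and 7 of 7 higher at 10 weeks than at P3. Fibroblast markers, with 6 genes summed, stood at 3333, 1218 and 4258 FPKM, with 6 of 6 compared lower at P3 and 4 of 7 higher at 10 weeks than at P3. Endothelial markers (8 genes) stood at 206, 65.7 and 180.4 FPKM, with 7 of 8 lower at P3 and 6 of 8 higher at 10 weeks than at P3. Muscle markers (7 genes) stood at 4414, 372 and 21044 FPKM and fat markers (6 genes) at 6182, 1879 and 10033 FPKM, and in both lists all genes were lower at P3 and all higher at 10 weeks than at P3. None of the genes summed in these 5 lists was listed at 0 at any age. Endothelial markers, unlike Tgm2, were not higher as a sum at 10 weeks than at E18.5, with 1 of 8 higher and 0 lower. In the same comparison 7 of 7 macrophage markers, 7 of 7 muscle markers and 2 of 6 fat markers were higher. Fibroblast markers were split, with 2 of 6 compared higher and 2 lower (Col1a1 at -1.61 and Col1a2 at -1.03). The part of these cell types in the Tgm2 values was not tested.

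**Figure D2:**
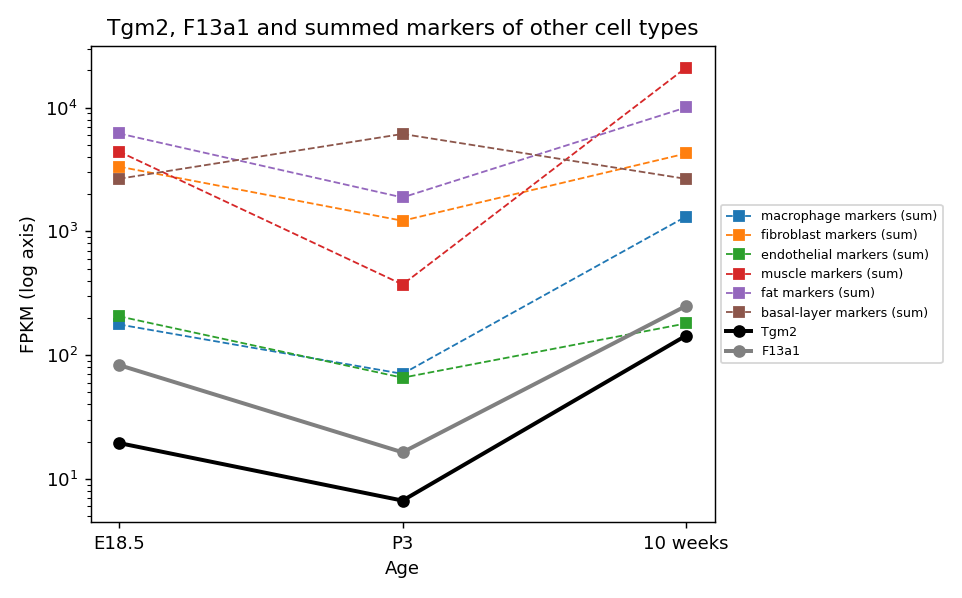
FPKM (log axis) of Tgm2 and F13a1 (solid lines) and summed FPKM of marker lists (dashed lines) against age; each point is 1 value. Tgm2, at 19.5, 6.68 and 144 FPKM, is lowest at P3, as are the muscle, fat, fibroblast, endothelial and macrophage sums, whereas the basal-layer sum is highest there (6123 FPKM).

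Partners of transglutaminase 2 outside the cell were less uniform with the deposited FPKM. For P3 over E18.5, 2 of 7 were higher and 1 lower (median -0.01), beside 9.56% and 9.42% of all genes. With the upper quartile 1 was higher and 1 lower. For 10 weeks over P3, 3 were higher and 1 lower (median 0.99), beside 19.8% and 9.98%. With the basal-layer scaling 0 were higher and 3 lower at P3, beside 3.04% and 30.7% of all genes. At 10 weeks over P3 it gave 5 higher and 0 lower, beside 42.1% and 4.48%. Fibronectin, Fn1, a matrix substrate, had 91.3, 45.0 and 138 FPKM over the 3 ages and was the lower gene at P3, at the threshold itself. The receptor Lrp1 was at 17.2, 17.6 and 46.5 FPKM. Gpr56, an adhesion receptor that binds the enzyme, instead peaked at P3 with 20.9, 62.2 and 26.2 FPKM.

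Within the whole transglutaminase family the composition of the RNA differed strongly by age. The 9 family genes summed to 143 FPKM at E18.5, 189 FPKM at P3 and 422 FPKM at 10 weeks. Tgm1, Tgm3 and Tgm5 together made up 26.2%, 80.7% and 5.45% of that sum in age order. Tgm2 made up 13.7%, 3.53% and 34.0%, and F13a1, the A chain of clotting factor XIII and a product of macrophages, 58.3%, 8.64% and 59.2%. F13a1 levels were 83.2, 16.4 and 250.1 FPKM, a minimum at P3 like that of Tgm2. Among only Tgm1, Tgm2, Tgm3 and Tgm5, the largest share was that of Tgm2 at E18.5 (34.3%), of Tgm1 at P3 (56.3%) and of Tgm2 at 10 weeks (86.2%). With 1 averaged value per age the shares carry no error, and those at E18.5 for Tgm2 and Tgm1 (34.3% and 31.7%) lay close together.

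**Figure D3:**
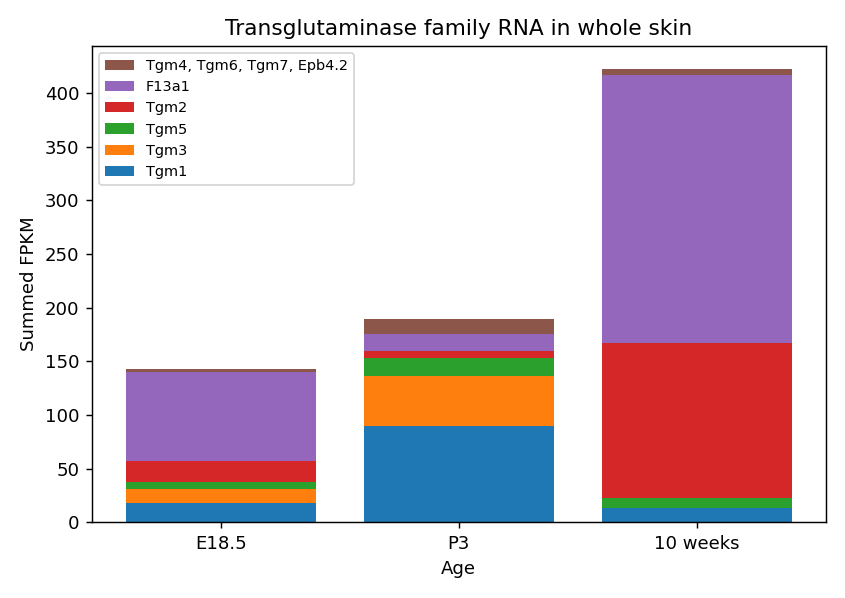
Summed FPKM of the transglutaminase family at each age, 1 bar per age, stacked by gene. The bars reach 143, 189 and 422 FPKM; Tgm1, Tgm3 and Tgm5 fill 80.7% of the P3 bar, and Tgm2 and F13a1 most of the 10-week bar.

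Of the other family members, Tgm6 had a P3 maximum, at 0.427 FPKM at E18.5, 9.97 FPKM at P3 and 0.600 FPKM at 10 weeks (log2 difference 2.94 for P3 over E18.5). It is the nearest family member to Tgm3 on chromosome 2, at 129949021 to 129979961. Tgm7 (chromosome 2, 120919325 to 120935527), next to Tgm5, behaved otherwise, with 0.173, 0.144 and 2.36 FPKM. Its E18.5 and P3 values carried the mark NOTEST in the status column and not OK, so its course rests on the low 10-week value. Epb4.2, the erythrocyte band 4.2 gene on the other side of Tgm5 (120843953 to 120862491), stayed at 0.108 to 0.140 FPKM. Tgm4 stood at 1.82, 3.34 and 2.46 FPKM and passed 2-fold in no comparison. Beside its P3 maximum, Tgm6 was lower at 10 weeks than at P3 (-2.78), as was Tgm3, whereas Tgm7 had its highest level at 10 weeks, unlike Tgm5. Epb4.2 did not reach 1 FPKM at any age and was not compared.

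Envoplakin, Evpl, and periplakin, Ppl, are rod-shaped partners that assemble under the membrane before cross-linking begins. Evpl, which spans chromosome 11 from 116081873 to 116099405, had 17.6 FPKM at E18.5, 75.6 FPKM at P3 and 16.7 FPKM at 10 weeks. Ppl, which spans chromosome 16 from 5086384 to 5132574, had 42.3, 160.3 and 47.4 FPKM. Both passed 2-fold upward for P3 over E18.5 (2.04 for Evpl, 1.90 for Ppl) and downward for 10 weeks over P3 (-2.11 for Evpl, -1.74 for Ppl). Adult and embryonic levels were close, at -0.07 for Evpl and 0.16 for Ppl, and the sign for Ppl turned to -0.09 with scaling on the median of ratios and to -0.13 with the upper quartile. Ppl stayed above Evpl at every age, at 2.41 times its FPKM at E18.5, 2.12 times at P3 and 2.84 times at 10 weeks. With the basal-layer scaling, Ppl was at 0.99 for P3 over E18.5 and at -0.91 for 10 weeks over P3, both just inside the 2-fold limits.

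Of the other plakins, the desmosomal plakin desmoplakin, Dsp, came closest, with 112, 442 and 154 FPKM, or 2.65, 2.76 and 3.26 times Ppl. The list of 5 further plakins with kazrin (a periplakin partner, listed as 9030409G11Rik) held 2 higher genes at P3 than at E18.5 and 1 lower gene at 10 weeks than at P3. Kazrin stood at 4.44 FPKM at E18.5, 12.8 FPKM at P3 and 6.74 FPKM at 10 weeks, whereas plectin, Plec, which anchors hemidesmosomes, passed 2-fold for 10 weeks over E18.5 (1.15) and not in the other comparisons. That call was lost with the median of ratios (0.90) and the upper quartile (0.86), and with the basal-layer scaling Plec also passed for 10 weeks over P3 (1.26). Under the basal-layer scaling the list held 1 higher gene at P3 than at E18.5, and 2 higher and 0 lower genes at 10 weeks than at P3. The list's median for P3 over E18.5 was 0.73, and -0.14 with the basal-layer scaling.

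Casp14, the keratinocyte caspase that takes part in filaggrin breakdown, lies on chromosome 10 (78174740 to 78181038). It was at 66.8 FPKM at E18.5, 286 FPKM at P3 and 8.39 FPKM at 10 weeks, with log2 differences of 2.08 for P3 over E18.5, -4.94 for 10 weeks over P3 and -2.85 for 10 weeks over E18.5. The P3 level was 34.1 times the adult level in plain FPKM. Other caspases did not share this course. For P3 over E18.5, 0 of 9 were higher and 1 was lower (median -0.32), beside 9.56% and 9.42% of all genes. For 10 weeks over P3, 3 of 9 were higher, beside 19.8% of all genes. With the basal-layer scaling 5 were lower for P3 over E18.5, beside 30.7% of all genes. Under it 7 were higher for 10 weeks over P3, beside 42.1%. The lower one at P3 with the deposited FPKM was Casp1, the inflammatory caspase, with 27.2, 3.70 and 42.8 FPKM. Casp4 stood at 1.73, 0.960 and 13.3 FPKM and Casp12 at 3.56, 1.54 and 17.2 FPKM.

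Asprv1, the gene of SASPase, which cuts the linkers of profilaggrin, had the highest level of the 8 genes at every age (chromosome 6, 86578168 to 86579698). It stood at 1175 FPKM at E18.5, 2860.0 FPKM at P3 and 254 FPKM at 10 weeks, ranking 92nd, 16th and 356th among expressed genes. Failed estimates, among them Krt1 and Krt10 at P3, were left out of these ranks. The log2 differences of Asprv1 were 1.28 for P3 over E18.5, -3.49 for 10 weeks over P3 and -2.21 for 10 weeks over E18.5. With the basal-layer scaling the first of these was 0.36, under 2-fold, and the other two still passed it (-2.65 and -2.29). Asprv1 had 17.6, 9.99 and 30.3 times the FPKM of Casp14 at the 3 ages, so Casp14 varied more between ages than Asprv1.

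**Figure D4:**
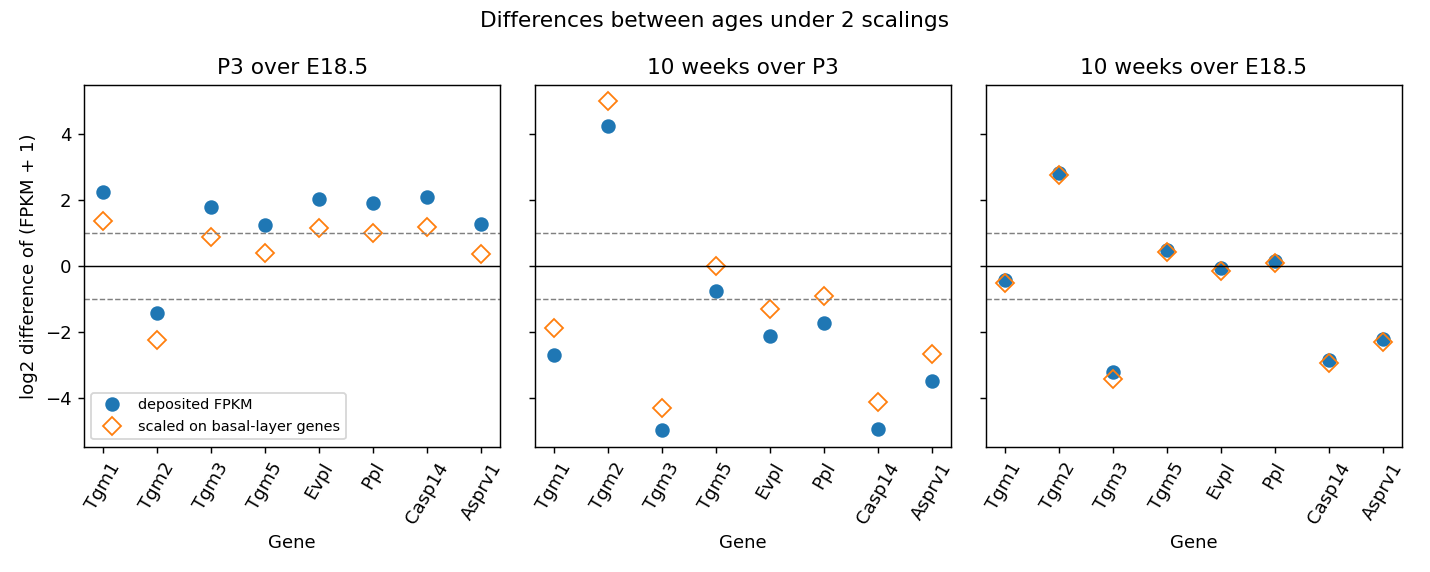
Log2 differences of (FPKM + 1) for the 8 genes in the 3 comparisons, with the deposited FPKM (filled circles) and with the ages scaled on basal-layer genes (open diamonds); dashed lines mark 2-fold. For P3 over E18.5, 7 circles but only 3 diamonds lie above the upper line, whereas for 10 weeks over E18.5 the same 4 genes lie outside the lines under both scalings.

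The RNA of proteins that transglutaminases join showed the same maximum at P3 in most cases compared. The P3 estimates of Krt1, Krt10, Flg2, Hrnr and Tchh failed, so these substrates were not compared at P3. Of 15 substrates compared for P3 over E18.5, 11 were higher and 0 lower (median 2.50), and for 10 weeks over P3, 11 were lower and 1 was higher (median -2.69). Loricrin, Lor, the bulk protein of the envelope, was at 641, 5378 and 403 FPKM, and repetin, Rptn, at 2.15, 48.3 and 6.64 FPKM. Sprr4, a small proline-rich protein, departed from this course, with its highest level, 515 FPKM, at 10 weeks, after 340.2 FPKM at P3. S100a10, which is not confined to keratinocytes, was at 564, 368 and 781 FPKM and was the 1 gene higher at 10 weeks than at P3 (1.08), which it was not with the median of ratios (0.90). With the basal-layer scaling 10 substrates passed 2-fold upward for P3 over E18.5 and 1, S100a10, downward (median 1.61), while at 10 weeks 9 were lower and 3 higher than at P3 (S100a10 at 1.92, Anxa1 at 1.45 and Sprr4 at 1.43). Lce and Sprr genes have near-identical relatives that share reads, so their single levels are uncertain. For 10 weeks over E18.5, 4 of 19 substrates were higher and 8 lower.

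Proteases, inhibitors and modifying enzymes that act on filaggrin and corneocytes were higher for P3 over E18.5 in 10 of 14 cases and lower in 0 (median 1.65), with 6 of 14 higher and a median of 0.75 under the basal-layer scaling. Padi3, which converts arginine in filaggrin and trichohyalin to citrulline, stood at 3.11, 69.3 and 2.94 FPKM. Klk5, a kallikrein of desquamation, stood at 50.3, 232 and 37.0 FPKM, and Blmh, bleomycin hydrolase, which completes filaggrin breakdown, at 148, 400.4 and 49.5 FPKM. For 10 weeks over P3, 8 of 14 were lower and 1 was higher, the lysosomal cathepsin Ctsh (29.2, 43.9 and 128 FPKM). With the basal-layer scaling 5 were lower and 3 higher, Ctsh at 2.34, Ctsl at 1.77 and Cst6 at 1.32. Cst6, an inhibitor of cathepsins, stood at 10.1, 112 and 158 FPKM.

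Enzymes of the lipid envelope, to which the protein envelope is bound, were higher for P3 over E18.5 in 9 of 11 cases (median 1.63), against 3 of 11 with the basal-layer scaling (median 0.76). At 10 weeks 6 were lower than at P3. The lipoxygenase Alox12b stood at 29.4, 85.7 and 8.72 FPKM and its partner Aloxe3 at 12.7, 49.0 and 6.84 FPKM. Elovl4, a very-long-chain elongase, was at 67.1, 291 and 308 FPKM.

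Among 14 transcription factors of epidermal differentiation, 11 were higher for P3 over E18.5 (8 with the upper quartile and 5 with the basal-layer scaling). At 10 weeks 7 were lower than at P3 (10 with the median of ratios and 5 with the basal-layer scaling). The basal-layer scaling also gave 1 gene higher at 10 weeks than at P3, Cebpb. Zfp750 stood at 17.4, 90.5 and 23.8 FPKM, Dlx3 at 15.9, 75.1 and 8.03 FPKM and Grhl3 at 9.88, 40.8 and 10.1 FPKM. Trp63 stood at 43.4, 83.0 and 44.4 FPKM and passed 2-fold in no comparison as deposited, but was at -1.07 for 10 weeks over P3 with the median of ratios. The ratio of Tgm1 to Trp63 was 0.416, 1.08 and 0.296 at the 3 ages. Medians for 10 weeks over E18.5 were small in the protease list (0.21) and in the transcription factor list (0.16), and both changed sign with the median-of-ratios scaling (-0.03 and -0.09).

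**Figure D5:**
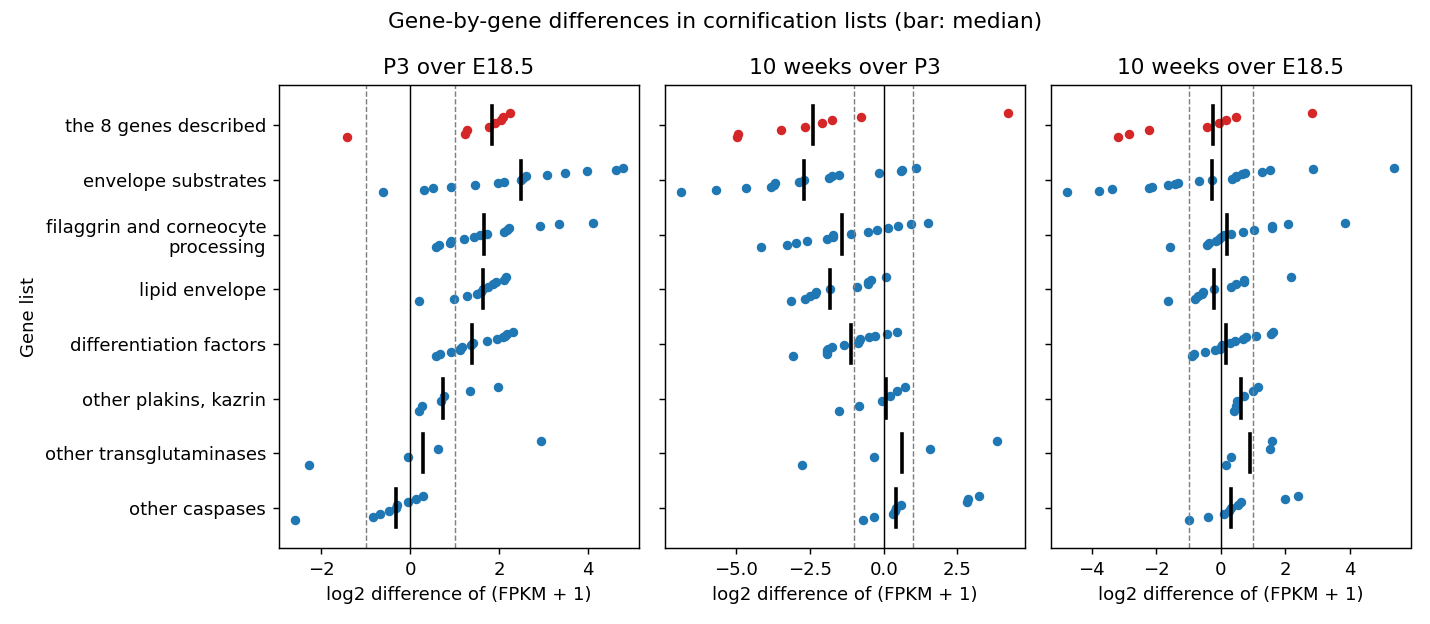
Log2 differences of (FPKM + 1) gene by gene (points) with the median (bar) for the 8 genes, in red, and 7 related lists, in 3 comparisons; dashed lines mark 2-fold. Medians of substrates (2.50), corneocyte processing genes (1.65) and lipid envelope genes (1.63) lie beyond 2-fold at P3 over E18.5 with the deposited FPKM. That of the other caspases (-0.32) does not. With the basal-layer scaling, not drawn, the first is 1.61 and the next 2 are 0.75 and 0.76, inside 2-fold. Under it the median of the other caspases is -1.07, beside -0.71 over all genes. That of the 8 genes is 0.94, against 1.83 as deposited.

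The 8 genes fell into different courses when their mean-centred log2(FPKM + 1) profiles over the 3 ages were compared by Euclidean distance. Evpl and Ppl were 0.27 apart, as were Tgm3 and Casp14, and Tgm1 and Evpl were 0.41 apart. The distance between Tgm3 and Casp14 depends on the pseudocount, because Tgm3 was at 0.508 FPKM at 10 weeks. In plain FPKM, their P3 levels were 91.2 times (Tgm3) and 34.1 times (Casp14) the 10-week ones. Distances with other pseudocounts were not computed. The distance from Tgm2 to the others ranged from 3.54 (Tgm5) to 6.61 (Tgm3). Among the 11614 genes reaching 5 FPKM at any age, the nearest to Tgm1 were Klk5 (0.06), the carboxypeptidase gene Cpa4 (0.09; 29.6, 156 and 21.5 FPKM) and Dnase1l2 (0.17; 22.5, 98.9 and 13.8 FPKM), the nuclease that removes DNA from cornifying keratinocytes. Nearest to Tgm3 were Il1f6, an interleukin-36 cytokine gene (0.15, with 0.457 FPKM in the adult), the carboxylesterase gene Ces2f (0.18; 13.8, 58.9 and 0.838 FPKM) and Lce1e (0.22). Ces2f was also nearest to Casp14 (0.11), followed by Tgm3 (0.27) and the keratin gene Krt12 (0.27). For Asprv1 they were Lce1a1 (0.04; 487, 1229 and 107 FPKM), the zinc transporter gene Slc39a2 (0.06) and Csta (0.21).

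For Tgm2 the nearest were the complement protease gene C1s (0.02; 13.8, 4.50 and 102 FPKM), the Fc receptor gene Fcgr2b (0.07; 15.8, 5.06 and 110.3 FPKM) and the muscle phosphofructokinase gene Pfkm (0.10; 25.8, 10.1 and 196 FPKM). Evpl was nearest to Plk3 (0.05), Slc6a19 (0.05) and 5430407P10Rik (0.06), and Ppl to Cobl (0.02), Wwc1 (0.04) and Gp1bb (0.04). The place of Gp1bb, at 0.730, 5.71 and 1.00 FPKM, also depends on the pseudocount. Tgm5 had Plcd1 (0.01) and 2310042D19Rik (0.01) nearest. A profile of 3 values is easily matched: 1256 genes lay within 0.5 of Tgm5, 271 of Ppl, 166 of Evpl and 84 of Tgm1, but 51 of Tgm2, 25 of Asprv1, 12 of Tgm3 and 10 of Casp14.

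Neighbours of the 8 genes along the chromosomes were counted in the same way. The tables list 30 genes within 50 kb of a member, of which 23 are expressed and none overlaps a member's span. At P3, 1 of the 23 was higher than at E18.5 and 0 were lower, beside 9.56% and 9.42% of all genes. The higher one was Tmem62 near Tgm5, with 2.89, 9.02 and 6.87 FPKM. At 10 weeks 3 neighbours were higher and 0 lower than at P3, beside 19.8% and 9.98% of all genes. For 10 weeks over E18.5, 4 neighbours were higher and 0 lower, beside 16.1% and 6.92%. Whether these counts differ from the shares was not tested. Ubn1, whose span ends 5 bases from that of Ppl, stood at 14.4, 18.3 and 14.7 FPKM, and Rabggta, the gene next to Tgm1, at 7.04, 13.3 and 10.3 FPKM. Mxd1, a Max-binding repressor gene next to Asprv1, was just under the threshold in both steps (9.02, 18.5 and 8.83 FPKM; 0.96 for P3 over E18.5 and -0.99 for 10 weeks over P3).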

How the data were processed

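Per the labels' protocols, Trizol was used for RNA from whole skin and the Illumina TruSeq kit for libraries. The authors deposited 1 table per age with 21881 gene rows each and FPKM values headed as averages, per the file headers. TopHat2 2.0.7, Cufflinks 2.1.1 and mm9 are named in the submitters' processing notes; for the annotation, strand setting and read numbers, the sources used here give nothing. Marked values of 0 (3 at E18.5, 7 at P3) were taken as failed and excluded. Differences are log2 of (FPKM + 1), over the 14662 genes that reached 1 FPKM at any age, computed with Python 3.11.15, NumPy 2.4.6, pandas 2.3.3 and Matplotlib 3.10.9 and tested on simulated data. Starts were raised by 1, because in 6272 genes the RefSeq length was end minus start, and in 432 it was 1 more. Of 168 list entries, all matched a row, 2 by synonym. Members and lists were chosen with earlier results of these data known. All 8 members are named, up to 4 genes per list by size of change, with further genes chosen after their values were seen, and the 3 genes nearest to each member, apart from items not reported here. Alternatives were other pseudocounts, minimums, thresholds and scalings. Motifs were chosen after the values were seen.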

Additional observations from a re-analysis of the deposited data

How the results depend on the processing

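No paired analysis was possible because each age has 1 averaged value, and leaving out replicates could not be run for the same reason. Of 216 recomputed differences of the 8 genes under 9 alternatives, 203 kept their direction and their side of the threshold. That count includes settings that could not alter a value. All 8 genes reached 5 FPKM at some age, so each change of the minimum kept 24 of 24. Changes of the threshold could not alter a direction. With scaling on basal-layer genes 18 of 24 were kept. With scaling on basal-layer genes 3 of the 8 were higher at P3 than before birth, in place of 7. Those no longer past 2-fold were Tgm3 (0.89), Tgm5 (0.39), Ppl (0.99) and Asprv1 (0.36), as was Ppl at 10 weeks over P3 (-0.91). Tgm5 turned to 0.01 at 10 weeks over P3. Ppl at 10 weeks over E18.5 turned to -0.09 with the median of ratios and to -0.13 with the upper quartile. At 3-fold 0 genes were lower at P3 than at E18.5, since Tgm2 is at -1.42. The cause of the scaling changes was not tested.

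Median-of-ratios scaling shifts log2 ratios by -0.07, -0.18 and -0.25 (P3 over E18.5, 10 weeks over P3, 10 weeks over E18.5), the upper quartile by -0.22, -0.08 and -0.30, and basal-layer genes by -0.92, 0.84 and -0.08. Of all genes called at P3 over E18.5, 50.4% were higher as deposited, 37.4% with the upper quartile and 9.01% with basal-layer genes. For 10 weeks over P3 the share was 66.6% as deposited and 90.4% with basal-layer genes. For 10 weeks over E18.5 it was 69.9% as deposited, 59.0% with the median of ratios and 56.9% with the upper quartile. As deposited, the counts of higher and lower genes were 1401 and 1380 for P3 over E18.5, 2909 and 1462 for 10 weeks over P3, and 2358 and 1014 for 10 weeks over E18.5. In that order the counts were 2803, 2654, 4503, 2599, 4178 and 1692 at 1.5-fold, 605, 586, 1632, 744, 1183 and 572 at 3-fold, and 842, 626, 1596, 898, 1274 and 561 with a pseudocount of 5. A pseudocount of 0.1 gave 2155 genes lower at P3 than at E18.5. Depth is unknown, so how far low values such as Tgm3 at 10 weeks are precise cannot be stated.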
